A study of Mus musculus with 24 samples.

Results

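The core loop of the circadian clock was described here through the 8 genes that encode its activators and repressors: Arntl (also called Bmal1), Clock, Npas2, Per1, Per2, Per3, Cry1 and Cry2. They were chosen by name, by mapping the Ensembl identifiers of the count tables to gene symbols, and are 8 of the 41388 genes in those tables. The study measured RNA of inguinal white adipose tissue (subcutaneous fat from the groin) in male mice. It asked, by its title, about the mineralocorticoid receptor (Nr3c2) in fat. All mice carried floxed Nr3c2 alleles (MRflox/flox), and the mutant mice, FMRKO, also carried AdipoqCre+, a Cre recombinase driven by the adiponectin promoter and so expected in fat cells. The 6 groups of 4 libraries were FMRKO on corticosterone, control on corticosterone, FMRKO on a high-fat diet, control on a high-fat diet, FMRKO on chow and control on chow. Corticosterone is the main glucocorticoid of the mouse, and no vehicle group was analysed here, so corticosterone was set against chow. The dose and length of the treatment, the composition and length of the diet, the age of the mice and the time of day of tissue collection were given by no source used here. The labels do not say that the libraries of a group came from separate animals, so the p-values speak only for the spread among these libraries, which may in part be technical.

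The clock is a feedback loop of transcription. The protein of Arntl pairs with that of Clock or of Npas2, and the pair binds the E-box motif and activates the Per and Cry genes, whose proteins then repress the pair. In a second loop the nuclear receptors of Nr1d1 and Nr1d2 repress Arntl and those of Rora and Rorb activate it, through a motif called the RORE, and a set of output factors (Dbp, Tef and Hlf, with Nfil3 as repressor) acts on genes with a D-box. In many tissues, fat among them, Arntl RNA peaks at about the opposite phase of the day to Per3 and Dbp RNA, so a sample taken at one time of day shows one point of these cycles. Per1 is also known as a gene that glucocorticoids induce directly.

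The promoter windows of 3 members are shown because these genes carry the results below: Arntl, which was higher with corticosterone, Per3, which was lower with both treatments, and Per1, the glucocorticoid-responsive member. Each window holds 250 bases before and 50 bases after a RefSeq start site on GRCm38.p6, is written 5′ to 3′ on the strand of the gene, and has in capitals each match to an E-box (CACGTG), a D-box (TTATGTAA or TTACGTAA) or a RORE core (TAGGTCA or TGGGTCA), searched on both strands.
Per3, chr4:151044616-151044915, minus strand: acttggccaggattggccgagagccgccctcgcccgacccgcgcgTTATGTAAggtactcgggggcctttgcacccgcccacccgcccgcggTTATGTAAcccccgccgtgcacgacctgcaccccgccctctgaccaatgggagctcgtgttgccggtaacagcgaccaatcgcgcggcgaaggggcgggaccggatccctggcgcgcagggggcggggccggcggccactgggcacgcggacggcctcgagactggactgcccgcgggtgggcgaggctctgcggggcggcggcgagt
Arntl, chr7:113207261-113207560, plus strand: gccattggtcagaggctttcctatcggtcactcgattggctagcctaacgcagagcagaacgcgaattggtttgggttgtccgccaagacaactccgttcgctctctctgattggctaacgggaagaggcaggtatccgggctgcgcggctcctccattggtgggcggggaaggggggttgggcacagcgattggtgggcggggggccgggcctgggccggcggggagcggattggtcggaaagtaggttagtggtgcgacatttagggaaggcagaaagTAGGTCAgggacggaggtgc
Per1, chr11:69098699-69098998, plus strand: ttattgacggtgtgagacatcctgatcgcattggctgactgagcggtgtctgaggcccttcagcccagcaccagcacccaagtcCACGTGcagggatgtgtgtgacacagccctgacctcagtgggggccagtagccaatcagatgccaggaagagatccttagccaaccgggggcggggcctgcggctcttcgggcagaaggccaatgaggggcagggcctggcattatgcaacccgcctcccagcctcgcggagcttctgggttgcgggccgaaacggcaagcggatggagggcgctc
The Per3 window held the D-box letters TTATGTAA at 2 places, starting 205 and 158 bases before the start site, and 1.06% of all 32851 windows of this length held a D-box. The Arntl window held 1 RORE core, starting 30 bases after the start site, against 6.45% of all windows with a RORE core. Arntl had another window in the table, farther upstream, that ended before this match and held none of the motifs. The Per1 window held 1 E-box, starting 166 bases before the start site, and the window of Cry1, not printed, held 1 E-box starting 60 bases before it; 7.15% of all windows held an E-box. No match overlapped another. The other windows of the 7 members in the table held none of the 3 motifs. A match is a description of letters and not a measured binding site, and the window is short. Per2 is named only.

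Each of the 8 genes was counted in every library, with 32 counts of Npas2 as the lowest and 9370 counts of Per1 as the highest, and all 8 were among the 19717 genes tested. Total counts ran from 17925109 to 40427675 per library. The labelled tissue was checked against 8 fat cell markers, which summed to between 14000 and 35700 CPM (counts scaled to a common library total, with TMM factors) in every library. Lymphocyte markers of a lymph node summed to 169 to 701 CPM in 6 libraries (chow FMRKO 1 and 3, and 1 and 4 of each high-fat diet group) and to 3.14 to 57.4 CPM in the other 18. Skeletal muscle markers summed to 323 to 13000 CPM in 3 libraries (chow FMRKO 5, corticosterone control 2 and high-fat diet control 3) and to 6.27 to 76.2 CPM in the other 21. The targeted gene, Nr3c2, had a log2 fold change of FMRKO over control (± SE) of -0.66 ± 0.20 with corticosterone, -0.52 ± 0.20 on high-fat diet and -0.29 ± 0.20 on chow, and none of these passed the test across all genes (edgeR adjusted p = 0.844, 1.000 and 0.592). FMRKO libraries lay below all control libraries with corticosterone and on high-fat diet, and the genotypes overlapped on chow. The titles of the 8 chow libraries carry a number before the name of the group and those of the other 16 do not. If that marks a batch, it cannot be told apart from the treatment in any comparison with chow.

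Per length, the members differed widely in level. Levels were put on an RPKM scale, here the TMM-scaled CPM divided by exon length in kilobases. Averaged over the 6 groups, Per1 was highest at 28.0 RPKM, followed by Clock at 16.3, Cry2 at 14.5 and Per3 at 11.3. Below these were Per2 at 8.48, Arntl at 5.21, Cry1 at 3.32 and Npas2 at 1.52 RPKM. Across the group means, Cry2 ran only from 13.0 to 16.4 RPKM, while Arntl ran from 2.30 to 8.88 RPKM, Per3 from 6.32 to 19.7 RPKM and Npas2 from 0.484 to 3.03 RPKM. With the groups of a gene put in order of their mean, neighbouring groups had overlapping libraries in all but 2 places. These were Arntl and Clock, for which all libraries of FMRKO with corticosterone lay above all libraries of FMRKO on high-fat diet. A lower level in bulk tissue can mean fewer cells of a type or less RNA per cell, which cannot be told apart here.

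**Figure D1:**
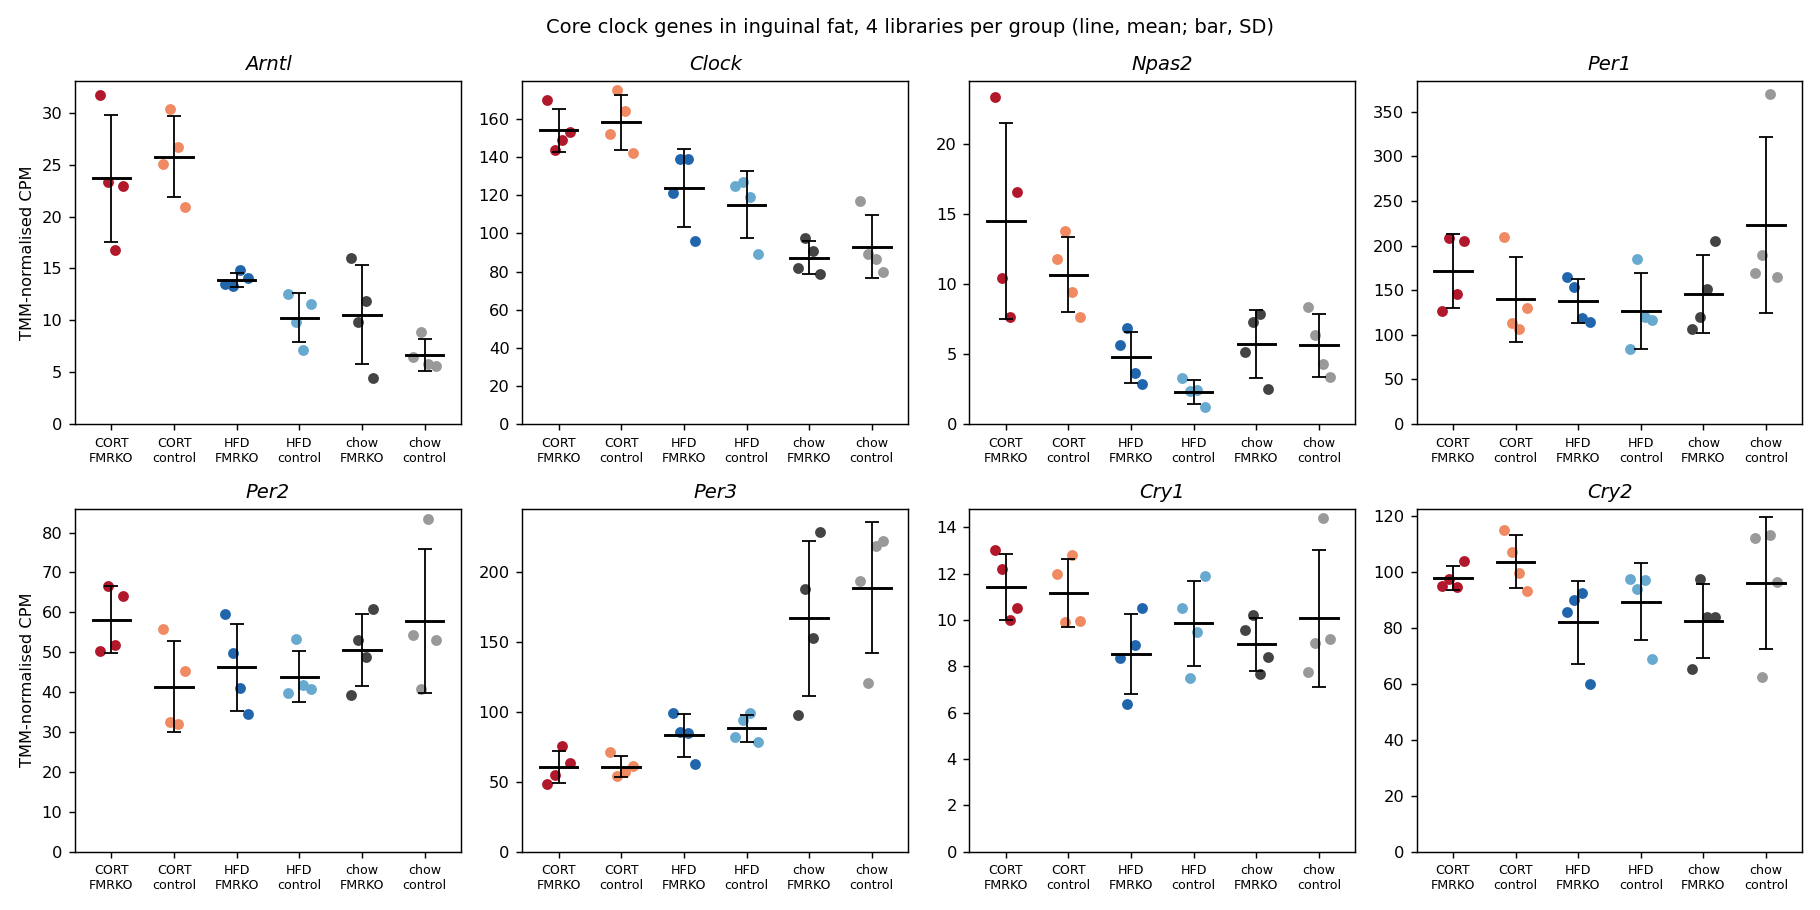
Levels of the 8 core clock genes in CPM (vertical axis, starting at 0, each gene on its own scale) in the 6 groups; each point is a library, each line is the mean of 4 libraries and each bar is ±1 SD. Arntl and Clock are highest in the corticosterone groups, at means of 23.7 and 25.8 CPM for Arntl, and Per3 is highest in the chow groups, at means of 167 and 189 CPM.

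Corticosterone against chow. The activator genes Arntl and Clock were higher and Per3 was lower with corticosterone in both genotypes, while Cry1, Cry2, Per1 and Per2 did not pass the test in either. In FMRKO tissue 3 members were called higher (Arntl, Clock, Npas2) and 1 lower (Per3) at an edgeR adjusted p under 0.05, where 41.1% of all genes were called, 20.2% higher and 20.9% lower. In control tissue 2 were called higher (Arntl, Clock) and 1 lower (Per3), where 42.9% of all genes were called, 20.2% higher and 22.7% lower. The shares of members called, 4 of 8 and 3 of 8, are close to these backgrounds, so the counts themselves set the members apart from other genes in neither genotype. Libraries of the groups did not overlap for 3 members in each genotype (Arntl, Clock and Per3), against 37.3% of all genes in FMRKO (20.2% higher, 17.2% lower) and 41.9% in control (19.7% higher, 22.2% lower). The median log2 fold change of the 8 members was 0.30 in FMRKO and 0.13 in control tissue, beside -0.11 and -0.12 over all genes.

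Arntl, whose protein pairs with that of Clock or of Npas2, lies on chromosome 7 at 113207465 to 113314122 on the plus strand (GRCm38, ENSMUSG00000055116). Its libraries had 31.7, 23.3, 16.8 and 22.9 CPM in FMRKO with corticosterone, against 16.0, 9.85, 11.9 and 4.46 CPM in FMRKO on chow. Control libraries had 25.1, 30.4, 26.7 and 20.9 CPM with corticosterone, against 6.49, 8.90, 5.76 and 5.59 CPM on chow. Every corticosterone library lay above every chow library of its genotype, narrowly in FMRKO (16.8 against 16.0 CPM) and widely in control (20.9 against 8.90 CPM). The log2 fold change was 1.16 ± 0.27 in FMRKO (edgeR adjusted p = 0.002) and 1.94 ± 0.28 in control (edgeR adjusted p = 1.5e-05), 2.24-fold and 3.85-fold. The difference between these is the corticosterone minus chow difference of the FMRKO effect, -0.78 ± 0.38, with an edgeR adjusted p of 0.834. It was -0.23 when the lymph node libraries were left out, -0.99 when the muscle libraries were, and between -1.03 (without chow FMRKO 5) and -0.51 (without chow FMRKO 1) with single libraries left out. The chow FMRKO libraries with the most Arntl, 1 and 3, were those with lymph node markers, and the one with the least, 5, was that with muscle markers. Of the other libraries with muscle markers, corticosterone control 2 had the most Arntl of its group (30.4 CPM). High-fat diet control 3 had the least of its group (7.09 CPM). Without the lymph node libraries the FMRKO value was 1.77, without the muscle libraries 0.88, and both stayed past the threshold; the part of these tissues in it was not otherwise tested.

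Clock, on chromosome 5 at 76212177 to 76304548 on the minus strand, encodes the usual partner of the Arntl protein. It had 170, 144, 149 and 153 CPM in FMRKO with corticosterone, against 81.9, 97.7, 90.8 and 78.7 CPM in FMRKO on chow. In control it had 152, 175, 164 and 142 CPM with corticosterone, against 117, 89.2, 86.5 and 79.5 CPM on chow. The groups did not overlap in either genotype, and the log2 fold changes were 0.82 ± 0.13 in FMRKO (edgeR adjusted p = 7.8e-05) and 0.76 ± 0.13 in control (edgeR adjusted p = 1.2e-04). Npas2, on chromosome 1 at 39193731 to 39363234, encodes the alternative partner and was the lowest member. It had 23.4, 10.4, 7.64 and 16.6 CPM in FMRKO with corticosterone, against 5.16, 7.28, 7.89 and 2.48 CPM in FMRKO on chow. Corticosterone library 3 lay below chow library 3, so these groups overlapped. The log2 fold change was 1.34 ± 0.40 (edgeR adjusted p = 0.011), and it fell short of the threshold without corticosterone FMRKO library 1 (0.99, adjusted p = 0.063) and without the lymph node and muscle libraries together (1.03, adjusted p = 0.297). In control Npas2 had 11.8, 13.8, 9.45 and 7.66 CPM with corticosterone, against 8.38, 6.39, 4.30 and 3.39 CPM on chow, a log2 fold change of 0.93 ± 0.40 that did not pass (edgeR adjusted p = 0.066).

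Per3 was the repressor gene that moved. It lies on chromosome 4 at 151003652 to 151044665 on the minus strand, and its protein is needed less for rhythm in the mouse than those of Per1 and Per2. It had 48.8, 55.2, 75.3 and 63.6 CPM in FMRKO with corticosterone, against 97.5, 188, 153 and 229 CPM in FMRKO on chow. In control it had 71.3, 53.9, 57.4 and 61.3 CPM with corticosterone, against 194, 121, 219 and 222 CPM on chow. No corticosterone library reached the lowest chow library of its genotype. The log2 fold change was -1.46 ± 0.22 in FMRKO (edgeR adjusted p = 3.5e-05) and -1.63 ± 0.22 in control (edgeR adjusted p = 8.4e-06), and it stayed past the threshold under all 33 alternatives in both genotypes.

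The other period genes encode the main partners of the Cry proteins, and neither was called. Per1, on chromosome 11 at 69095217 to 69109960 on the plus strand, had 127, 208, 146 and 205 CPM in FMRKO with corticosterone, against 107, 120, 151 and 205 CPM in FMRKO on chow. In control it had 210, 113, 107 and 130 CPM with corticosterone, against 169, 189, 370 and 165 CPM on chow. The groups overlapped in both genotypes, and the log2 fold changes were 0.23 ± 0.29 in FMRKO (95% interval -0.37 to 0.84) and -0.67 ± 0.29 in control (95% interval -1.27 to -0.07, edgeR adjusted p = 0.067). Per2, on chromosome 1 at 91415982 to 91459324 on the minus strand, had 50.2, 66.6, 51.8 and 64.0 CPM in FMRKO with corticosterone, against 39.4, 53.0, 48.8 and 60.9 CPM in FMRKO on chow. In control it had 55.7, 32.5, 31.9 and 45.4 CPM with corticosterone, against 54.4, 40.7, 83.3 and 53.1 CPM on chow. Its log2 fold changes were 0.20 ± 0.21 and -0.48 ± 0.21 (edgeR adjusted p = 0.463 in FMRKO and 0.073 in control). In control, corticosterone library 1 was the highest of its group for both genes, and without it both were called lower, at -0.90 for Per1 and -0.63 for Per2. Chow control library 4 was the highest of its group for both genes, and without it the values were -0.31 for Per1 and -0.25 for Per2 and not called.

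The lack of a call for Per1 can be set beside other genes that glucocorticoids are known to induce. Of the 6 genes in that list, Fkbp5, a chaperone partner of the glucocorticoid receptor, and Tsc22d3, an anti-inflammatory target, were called higher in both genotypes. That is 2 of 6, where 20.2% of all genes were called higher in each genotype. Tsc22d3 had a log2 fold change of 2.23 ± 0.26 in FMRKO and 1.90 ± 0.25 in control (edgeR adjusted p = 1.8e-06 and 7.4e-06). It was also called higher on high-fat diet against chow, where no corticosterone was given. The values there were 1.23 ± 0.25 in FMRKO and 0.92 ± 0.25 in control (edgeR adjusted p = 0.001 and 0.008). Fkbp5 was not called there, and Klf9 was called lower in control (-0.93 ± 0.21, edgeR adjusted p = 0.002). Of the 6 genes, 1 was called higher and 0 lower on high-fat diet in FMRKO, where 24.4% of all genes were called. In control 1 was called higher and 1 lower, where 29.2% of all genes were called. With corticosterone against chow, Fkbp5 had 2.05 ± 0.32 in FMRKO and 1.23 ± 0.32 in control (edgeR adjusted p = 6.2e-05 and 0.004). Zbtb16, Dusp1 and Klf9 did not pass in either genotype, and Sgk1 was called lower in control (-0.78 ± 0.24, edgeR adjusted p = 0.014).

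The cryptochrome genes, whose proteins repress the activator pair directly, passed the test in none of the comparisons. Cry1, on chromosome 10 at 85131702 to 85185054 on the minus strand, ranged from 6.36 to 14.4 CPM over all 24 libraries. Its log2 fold change with corticosterone was 0.35 ± 0.19 in FMRKO (95% interval -0.04 to 0.74) and 0.15 ± 0.19 in control (95% interval -0.24 to 0.54). Cry2, on chromosome 2 at 92403646 to 92434043 on the minus strand, ranged from 60.0 to 115 CPM, with 0.25 ± 0.17 in FMRKO (95% interval -0.10 to 0.59) and 0.11 ± 0.16 in control (95% interval -0.23 to 0.45). Cry2 shares 295 exon bases with D930015M05Rik on the other strand, which had 29 to 100 counts per library, and no source used here says whether counting used the strand.

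**Figure D2:**
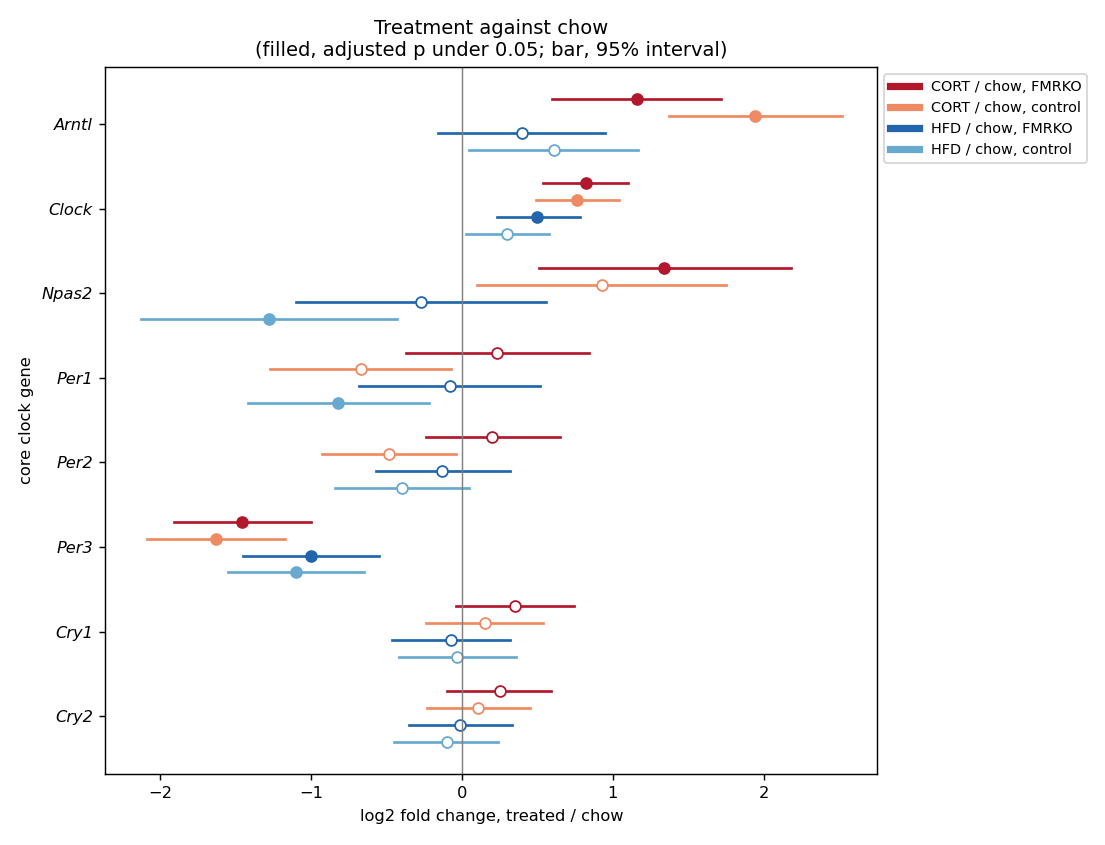
Log2 fold change (horizontal axis) of each core clock gene for corticosterone and high-fat diet against chow in each genotype; points are edgeR estimates, filled where the adjusted p was under 0.05, and bars are 95% intervals. Per3 is below 0 and filled in all 4 comparisons, and Arntl is above 0 and filled with corticosterone only (1.16 in FMRKO and 1.94 in control).

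Some sums of cell markers also differed between corticosterone and chow, without a test. The ranges were apart for stromal fibroblast markers in both genotypes, for endothelial markers in control and for macrophage markers in FMRKO. They overlapped for endothelial markers in FMRKO, for macrophage markers in control and for fat cell markers in both genotypes. The 4 stromal fibroblast markers summed to 2080 to 4190 CPM in FMRKO with corticosterone, against 4870 to 8480 CPM in FMRKO on chow, and to 2060 to 4720 CPM in control with corticosterone, against 5290 to 16000 CPM in control on chow. The 4 endothelial markers summed to 380 to 469 CPM in FMRKO with corticosterone, against 447 to 578 CPM in FMRKO on chow, and to 351 to 417 CPM in control with corticosterone, against 572 to 697 CPM in control on chow. The 5 macrophage markers summed to 950 to 1310 CPM with corticosterone and 537 to 653 CPM on chow in FMRKO, and to 725 to 1250 CPM with corticosterone and 335 to 1440 CPM on chow in control. The 8 fat cell markers summed to 24000 to 27500 CPM with corticosterone and 17400 to 32200 CPM on chow in FMRKO, and to 24000 to 27600 CPM with corticosterone and 20000 to 35700 CPM on chow in control. None of these markers was at 0 throughout a group, and the part of these cells in the clock results was not tested.

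High-fat diet against chow. Per3 was the 1 member called in both genotypes, and it was lower on high-fat diet. In FMRKO 1 member was called higher (Clock) and 1 lower (Per3), where 24.4% of all genes were called, 15.2% higher and 9.18% lower. In control 3 members were called lower (Npas2, Per1, Per3) and 0 higher, where 29.2% of all genes were called, 15.3% higher and 13.9% lower. With the lymph node libraries left out 3 members were called in FMRKO in place of 2 and 2 in control in place of 3. With the muscle libraries left out 1 was called in FMRKO and 3 in control. Libraries did not overlap for 0 members in FMRKO, against 22.4% of all genes (13.5% higher, 8.88% lower), and for 2 in control (Npas2 and Per3), against 23.2% (11.5% higher, 11.7% lower). These comparisons use the same chow libraries as those of corticosterone, so the 2 sets are not independent. Per3 had 99.3, 85.9, 84.7 and 62.8 CPM in FMRKO on high-fat diet and 82.0, 93.9, 98.9 and 78.7 CPM in control on high-fat diet. All control libraries on high-fat diet lay below all chow ones, and in FMRKO only high-fat diet library 1 (99.3 CPM) lay above chow library 1 (97.5 CPM). The log2 fold change was -1.0 ± 0.22 in FMRKO (edgeR adjusted p = 0.002) and -1.10 ± 0.22 in control (edgeR adjusted p = 7.4e-04), a fold of 0.499 and 0.467, and it stayed past the threshold under all 33 alternatives.

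Clock had 121, 139, 139 and 96.2 CPM in FMRKO on high-fat diet, against the 78.7 to 97.7 CPM of FMRKO on chow, so that only high-fat diet library 4 overlapped with chow. Its log2 fold change was 0.50 ± 0.13 in FMRKO (edgeR adjusted p = 0.008). In control it had 125, 127, 119 and 89.4 CPM on high-fat diet, and the log2 fold change of 0.30 ± 0.13 did not pass (edgeR adjusted p = 0.089). The FMRKO call was lost without the muscle libraries (0.40, adjusted p = 0.054) and without high-fat diet FMRKO library 3 (0.40, adjusted p = 0.053). In control a call was gained with the lymph node libraries left out (0.43, adjusted p = 0.023). Arntl had 13.5, 13.3, 14.8 and 14.1 CPM in FMRKO on high-fat diet, a narrow range inside that of chow, and 12.5, 9.80, 7.09 and 11.6 CPM in control on high-fat diet, of which 7.09 CPM lay within the range of chow. Its log2 fold changes of 0.40 ± 0.27 in FMRKO and 0.61 ± 0.27 in control did not pass (edgeR adjusted p = 0.307 and 0.092). These values leaned on the libraries with other tissue. In FMRKO Arntl passed at 0.99 when the lymph node libraries were left out (adjusted p = 0.050, under 0.05 before rounding) and was 0.09 when the muscle libraries were (adjusted p = 0.799). In control it was 0.36 in the first case (adjusted p = 0.374) and passed at 0.74 in the second (adjusted p = 0.017).

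Npas2 had 3.29, 2.34, 2.43 and 1.20 CPM in control on high-fat diet, each below the lowest chow control library (3.39 CPM). The log2 fold change was -1.28 ± 0.41 (edgeR adjusted p = 0.023), and it was not past the threshold without the lymph node libraries (-1.21, adjusted p = 0.099), chow control library 1 (-1.02) or high-fat diet control library 4 (-1.10). In FMRKO on high-fat diet Npas2 had 5.66, 6.88, 3.63 and 2.86 CPM, which overlapped with chow (-0.27 ± 0.40, 95% interval -1.10 to 0.56). Per1 had 84.3, 185, 120 and 117 CPM in control on high-fat diet, and its range overlapped with that of chow control. Its log2 fold change was -0.82 ± 0.29 (edgeR adjusted p = 0.039). That call was lost without chow control library 4, at 370 CPM (-0.46, adjusted p = 0.220). It was also lost without high-fat diet control library 1 (-0.69, adjusted p = 0.104), 3 (-0.81, adjusted p = 0.069) or 4 (-0.81, adjusted p = 0.061). In all it was lost under 9 of 33 alternatives, with values between -1.08 and -0.25. In FMRKO Per1 had 165, 153, 119 and 114 CPM on high-fat diet (-0.08 ± 0.29, 95% interval -0.68 to 0.52). Per2, Cry1 and Cry2 did not pass in either genotype, with log2 fold changes between -0.40 and -0.01.

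Corticosterone against high-fat diet. This comparison uses no chow library. In control 3 members were called higher with corticosterone (Arntl, Clock, Npas2) and 0 lower, where 24.9% of all genes were called, 10.6% higher and 14.2% lower. In FMRKO 1 was called higher (Npas2) and 0 lower, where 15.8% of all genes were called, 7.27% higher and 8.49% lower. Libraries did not overlap for 4 members in FMRKO (Arntl, Clock, Npas2 and Cry2, all higher), against 24.9% of all genes (12.9% higher, 12.1% lower), and for 4 in control (Arntl, Clock and Npas2 higher, Per3 lower), against 27.8% (13.1% higher, 14.8% lower). Npas2 had the largest difference, with log2 fold changes of 1.61 ± 0.40 in FMRKO (edgeR adjusted p = 0.009) and 2.21 ± 0.42 in control (edgeR adjusted p = 7.2e-04), 3.05-fold and 4.62-fold, and its groups did not overlap in either genotype. Without the lymph node libraries, which include 2 of 4 libraries in each high-fat diet group, the FMRKO value was 1.49 (adjusted p = 0.072) and the control value 2.18 (adjusted p = 0.012). The Arntl log2 fold change was 0.76 ± 0.27 in FMRKO, which did not pass (edgeR adjusted p = 0.057), and 1.33 ± 0.27 in control (edgeR adjusted p = 0.001), with no overlap in either. The Clock log2 fold change in control was 0.46 ± 0.13 (edgeR adjusted p = 0.015), but without the lymph node libraries it was 0.38 and not called (adjusted p = 0.074). The Per3 log2 fold change was -0.45 ± 0.22 in FMRKO and -0.53 ± 0.22 in control and did not pass (edgeR adjusted p = 0.163 and 0.074). Clock in FMRKO, at 0.31 ± 0.13, did not pass (edgeR adjusted p = 0.114). Per1, Per2, Cry1 and Cry2 passed in neither genotype, with log2 fold changes from 0.26 to 0.42 in FMRKO and from -0.09 to 0.21 in control. In control the sign of Per1 and of Per2 turned under some alternatives, with Per1 from -0.29 to 0.44 and Per2 from -0.25 to 0.07 over all 33.

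FMRKO against control. Within each condition, edgeR called 0 of the 8 members, and DESeq2 called 0 as well. In a fit of the high-fat diet libraries alone, with same-numbered libraries taken as pairs, edgeR called 39 of all genes and again 0 members. The fit of all 24 libraries without pairs called 2 genes on high-fat diet. These fits differ in the libraries used as well as in the pairs, so the rise cannot be put down to the pairs alone. The background was low: 0.00507% of all genes were called with corticosterone, 0.0101% on high-fat diet and 0.0101% on chow. At an unadjusted p under 0.05 there were 1 member of 8 and 843 of all genes with corticosterone, 1 member and 781 genes on high-fat diet, and 2 members and 2353 genes on chow. The corticosterone member was Per2, at 58.2 ± 8.35 CPM in FMRKO and 41.4 ± 11.4 CPM in control (SD, n = 4 libraries each), a log2 fold change of 0.49 ± 0.21. The high-fat diet member was Npas2, at 4.76 ± 1.85 CPM in FMRKO and 2.32 ± 0.86 CPM in control (SD, n = 4 each), a log2 fold change of 1.04 ± 0.41. Among the same-numbered high-fat diet libraries, Npas2 was higher in FMRKO in 4 of 4 pairs. The share of all genes with 4 of 4 pairs in one direction is not given here, so this does not set Npas2 apart. The fit with the pairs as a block gave 1.02 for Npas2, which did not pass (edgeR adjusted p = 0.132). The chow members were Arntl, at 10.5 ± 4.79 CPM in FMRKO and 6.69 ± 1.52 CPM in control, and Per1, at 146 ± 43.4 CPM in FMRKO and 223 ± 98.3 CPM in control (SD, n = 4 each). Their log2 fold changes were 0.66 ± 0.27 and -0.62 ± 0.29, and each pair of groups overlapped. On chow 0 members had groups that did not overlap, against 3.2% of all genes (1.59% higher, 1.61% lower), and with corticosterone 0, against 4.92% (2.44% higher, 2.49% lower). Arntl on chow was 0.11 without the lymph node libraries, 0.39 without chow FMRKO library 1 alone, which is one of them, and 0.94 without the muscle libraries. Without chow control library 4 Per1 was -0.26. On high-fat diet Arntl was 13.9 ± 0.664 CPM in FMRKO and 10.3 ± 2.39 CPM in control (SD, n = 4 each); the libraries did not overlap, for 1 member of 8 against 2.37% of all genes (1.53% higher, 0.847% lower), and the log2 fold change was 0.44 ± 0.27 (edgeR adjusted p = 1.000). With the lymph node libraries left out it was 0.73, and with the muscle libraries left out 0.29, neither of them called. Clock, Per3, Cry1 and Cry2 had log2 fold changes between -0.22 and 0.11 over the 3 conditions, some of which changed sign under alternatives.

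Averaged over the 3 conditions, the FMRKO against control difference was 0.33 ± 0.15 for Arntl and 0.50 ± 0.23 for Npas2, with edgeR adjusted p of 0.739 and 0.731, and 0.0355% of all genes were called. The change of the FMRKO effect between conditions was called for 0 of 8 members and for 0.0% of all genes by edgeR, with 2 members and 1171 genes at an unadjusted p under 0.05 for corticosterone minus chow and 0 members and 1939 genes for high-fat diet minus chow; DESeq2 called 0 members too. The 2 members were Per2, at 0.69 ± 0.30 (95% interval 0.06 to 1.32, edgeR adjusted p = 0.814), and Per1, at 0.91 ± 0.41 (95% interval 0.06 to 1.76, edgeR adjusted p = 0.818). For high-fat diet minus chow Per1 was 0.74 ± 0.41 (95% interval -0.11 to 1.59), and 0.28 without the lymph node libraries. For Npas2 it was 1.01 ± 0.57 for high-fat diet minus chow (95% interval -0.17 to 2.20). With 4 libraries a group these intervals are wide, so a missed threshold does not show that the FMRKO effect was alike in the conditions.

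**Figure D3:**
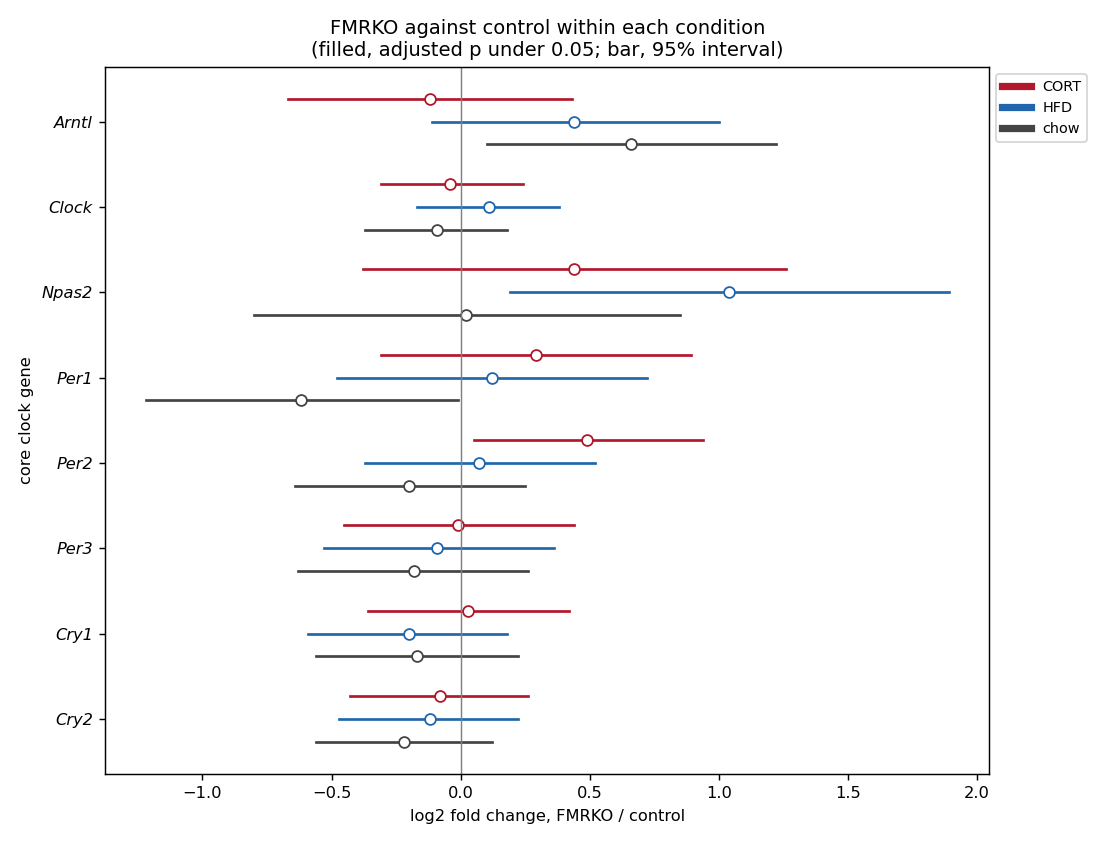
Log2 fold change of FMRKO against control (horizontal axis) for each core clock gene with corticosterone (CORT), on high-fat diet (HFD) and on chow; points are edgeR estimates, all open because none had an adjusted p under 0.05, and bars are 95% intervals. The points farthest from 0 are Npas2 on high-fat diet at 1.04 and Arntl on chow at 0.66.

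Relations between members across libraries. The level of each gene was taken as its deviation from its group mean in log2 CPM, over the 24 libraries. Differences between groups therefore do not enter. Of the 28 pairs of members, 5 were tested, with p-values from 100000 permutations within groups. Some pairs outside these 5 also had a high r, such as Clock with Npas2 (0.76) and Per3 with Cry2 (0.72), and were not tested. Arntl and Per3 moved in opposite directions: Pearson's r was -0.81 (permutation p = 6e-05, adjusted over the 5 pairs 0.00015) and Spearman's rho -0.81 (permutation p = 6e-05, adjusted 0.0002). Without the 2 libraries farthest from the median of Arntl, chow FMRKO 5 and 1, r was -0.71. These are also libraries with muscle and lymph node markers, and with all 9 libraries of both kinds left out r was -0.86. Per1 and Per2 moved together, with r of 0.85 (permutation p = 2e-05, adjusted 0.0001) and rho of 0.80 (permutation p = 8e-05, adjusted 0.0002), and r was 0.77 without chow control 4 and corticosterone control 1. Arntl and Npas2 had r of 0.54 (permutation p = 0.034, adjusted 0.057) and rho of 0.40 (permutation p = 0.087, adjusted 0.146), which did not pass; r was 0.47 without the 2 farthest libraries (permutation p = 0.068) and 0.67 without all 9 libraries with lymph node or muscle markers (permutation p = 0.047, not adjusted). Arntl had r of 0.18 with Clock (permutation p = 0.379, adjusted 0.418; rho 0.21, permutation p = 0.343, adjusted 0.343) and 0.17 with Cry1 (permutation p = 0.418, adjusted 0.418; rho 0.27, permutation p = 0.243, adjusted 0.303), and without the 2 farthest libraries these were 0.18 and 0.13. Without the 9 libraries they were 0.39 and 0.20 (permutation p = 0.287 and 0.570), and Per1 with Per2 was 0.88.

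The balance of these opposed genes can be read per library as log2 CPM of Arntl minus log2 CPM of Per3. This balance combines the group differences of Arntl and Per3 given above and is not an independent result. It was -0.62, -1.24, -2.16 and -1.47 in FMRKO with corticosterone and -1.50, -0.83, -1.10 and -1.55 in control with corticosterone. It was -2.87, -2.68, -2.51 and -2.15 in FMRKO on high-fat diet and -2.70, -3.25, -3.79 and -2.76 in control on high-fat diet. On chow it was -2.61, -4.25, -3.68 and -5.67 in FMRKO and -4.90, -3.76, -5.24 and -5.30 in control. All control libraries with corticosterone lay above all control libraries on high-fat diet, while in FMRKO the lowest corticosterone value (-2.16) lay just below the highest high-fat diet value (-2.15). Chow FMRKO spanned the widest range.

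**Figure D4:**
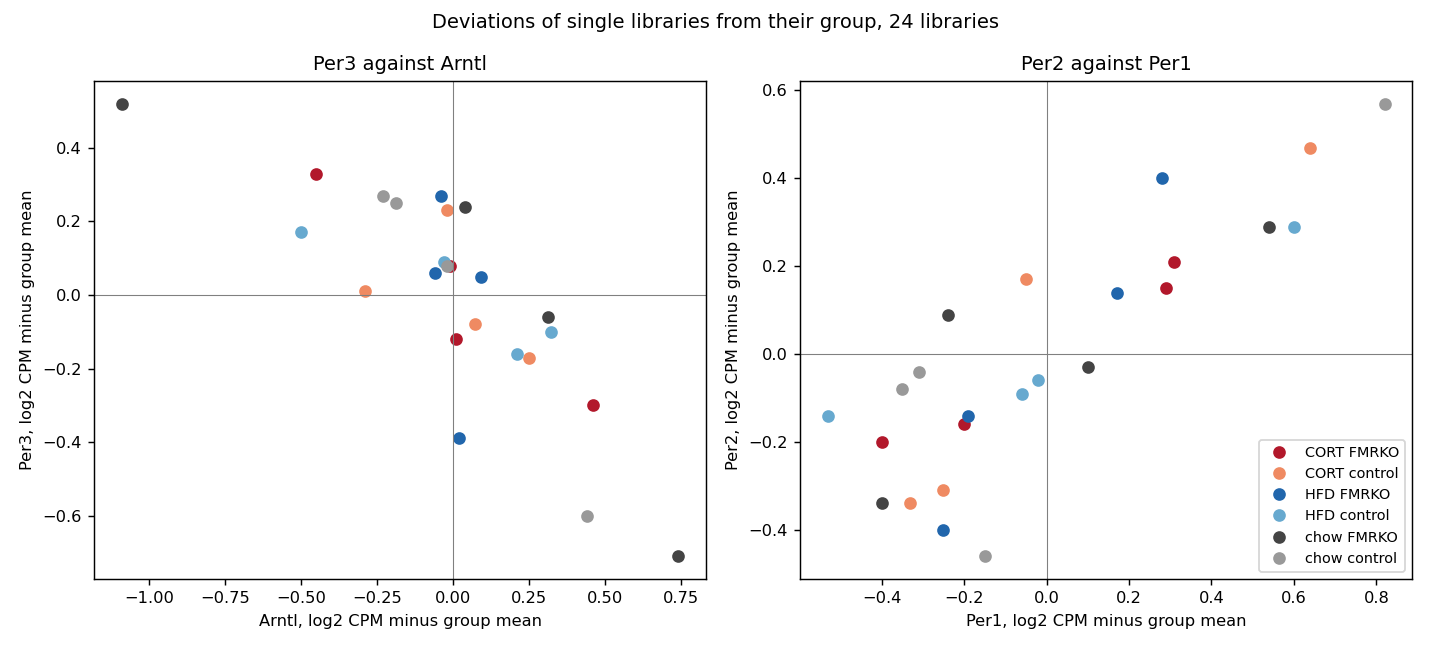
Deviation from the group mean (log2 CPM) of Per3 against that of Arntl, and of Per2 against that of Per1; each point is 1 of 24 libraries, coloured by group. Arntl and Per3 run in opposite directions (r = -0.81) and Per1 and Per2 in the same direction (r = 0.85).

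The genes whose deviations were most like those of a member were found among 13035 genes with a mean of at least 1 log2 CPM, over the same 24 libraries, as a description. For Per3 they were Tef (r = 0.95), Abca8a (0.88) and Nr1d2 (0.88), of which Tef and Nr1d2 are clock genes. For Per1 they were Cebpd (0.93), Tsc22d3 (0.87) and Slc10a6 (0.86), and for Per2 they were Cyp2d22 (0.85), Per1 (0.85) and Klf9 (0.84). For Arntl they were Pinx1 (0.86), Klhl18 (0.85) and Cactin (0.83), and without the 2 farthest libraries these were 0.66, 0.73 and 0.65. For Npas2 they were Alkal2 (0.77), Clock (0.76) and Tma16 (0.75). For Clock they were Zfp91, Nomo1 and Wwtr1 (each 0.91), for Cry2 Fgfrl1, Zbtb4 and Sptan1 (each 0.94), and for Cry1 Jchain, Dqx1 and 6230400D17Rik (each 0.73). Jchain is a plasma cell gene.

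The rest of the clock. Of 19 other clock genes in 4 lists, all of them tested, 4 were called higher and 11 lower with corticosterone against chow in FMRKO, and 4 higher and 11 lower in control. Of all genes, 41.1% were called in FMRKO (20.2% higher, 20.9% lower) and 42.9% in control (20.2% higher, 22.7% lower). On high-fat diet against chow the counts were 1 higher and 8 lower in FMRKO, where 24.4% of all genes were called (15.2% higher, 9.18% lower), and 2 higher and 11 lower in control, where 29.2% were (15.3% higher, 13.9% lower). The median log2 fold change of the 19 was -0.60 in FMRKO and -0.40 in control with corticosterone, beside -0.11 and -0.12 over all genes, and -0.67 in FMRKO and -0.58 in control on high-fat diet, beside -0.06 and 0.01. Among the output factors, Dbp, an activator of D-box genes, had 5.30, 7.64, 12.4 and 10.8 CPM in FMRKO with corticosterone, against 46.9, 91.8, 70.4 and 91.2 CPM in FMRKO on chow. In control it had 8.85, 6.48, 8.17 and 12.7 CPM with corticosterone, against 75.0, 62.0, 92.1 and 87.3 CPM on chow. The groups were far apart, with log2 fold changes of -3.05 ± 0.28 in FMRKO (edgeR adjusted p = 1.4e-07) and -3.13 ± 0.28 in control (edgeR adjusted p = 7.9e-08), and of -1.40 ± 0.26 and -1.24 ± 0.26 on high-fat diet (edgeR adjusted p = 5.3e-04 and 0.001).

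Tef, of the same family, was also called lower in all 4 comparisons with chow, from -0.60 ± 0.20 in FMRKO with corticosterone to -0.83 ± 0.20 in FMRKO on high-fat diet. Hlf, also of that family, was called lower in FMRKO with corticosterone (-1.08 ± 0.26, edgeR adjusted p = 0.003) and was not called in control (-0.40 ± 0.26, edgeR adjusted p = 0.220). Nfil3, the repressor that competes for the D-box, was higher with corticosterone, at 1.24 ± 0.22 in FMRKO and 1.71 ± 0.22 in control (edgeR adjusted p = 2.0e-04 and 6.2e-06). In the loop that acts on Arntl, the repressor gene Nr1d2 was lower, at -1.50 ± 0.15 in FMRKO and -1.56 ± 0.15 in control with corticosterone (edgeR adjusted p = 3.1e-07 and 1.5e-07), and so was Nr1d1, at -0.83 ± 0.22 and -0.85 ± 0.22 (edgeR adjusted p = 0.005 and 0.004). Rora, an activator gene of that loop, was higher with corticosterone, at 0.59 ± 0.16 in FMRKO and 0.51 ± 0.16 in control, and Rorb, its paralog, was lower, at -1.29 ± 0.41 in FMRKO and -1.20 ± 0.41 in control (edgeR adjusted p = 0.017 and 0.022). Among further repressors of the activator pair, Ciart was lower with corticosterone, at -2.04 ± 0.37 in FMRKO and -2.61 ± 0.37 in control (edgeR adjusted p = 2.1e-04 and 1.7e-05), and so were Bhlhe40, at -1.61 ± 0.29 and -1.23 ± 0.28, and Bhlhe41, at -1.10 ± 0.20 and -1.03 ± 0.20. The size of the Ciart change in control leaned on chow control library 4, which had 16.0 CPM. Chow control libraries 1, 2 and 5 had 4.53, 4.98 and 5.20 CPM, still above the 0.941 to 1.44 CPM of control with corticosterone. Ciart counts with corticosterone were low, down to 22 in a library. Arntl2, the paralog of Arntl, was lower with corticosterone, at -1.05 ± 0.19 in FMRKO and -1.26 ± 0.19 in control (edgeR adjusted p = 2.4e-04 and 3.3e-05), and also on high-fat diet, where Arntl was not called, at -0.67 ± 0.19 and -0.99 ± 0.19 (edgeR adjusted p = 0.013 and 6.0e-04).

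On high-fat diet against chow, Ciart was called lower as well, at -1.38 ± 0.36 in FMRKO and -1.56 ± 0.36 in control, and so were Bhlhe41 (-1.40 ± 0.20 and -0.67 ± 0.19), Hlf (-1.18 ± 0.26 and -0.81 ± 0.26) and Nr1d2 (-0.71 ± 0.14 and -0.77 ± 0.14). The control value of Ciart again includes chow control library 4, at 16.0 CPM. Bhlhe40 was called lower in FMRKO (-0.99 ± 0.28) and not in control (-0.16 ± 0.28). In control, high-fat diet library 3, which had muscle markers, had 66.0 CPM of Bhlhe40. High-fat diet control libraries 1, 2 and 4 had 19.2, 28.0 and 32.6 CPM, below the 33.1 to 45.0 CPM of control on chow. Nr1d1 was called lower in control (-0.61 ± 0.22) and not in FMRKO (-0.56 ± 0.22). Nfil3 was called higher in control (0.80 ± 0.22) and not in FMRKO (0.35 ± 0.22). The differences between genotypes in these effects were called for none of the 19 genes. Of 7 genes for modifiers of clock proteins (kinases, ubiquitin ligase parts and Usp2), 2 were called higher and 1 lower with corticosterone in FMRKO and 2 higher and 2 lower in control, beside 41.1% and 42.9% of all genes in these comparisons. Gsk3b, a kinase gene, was called higher at 0.36 ± 0.10 in FMRKO and 0.29 ± 0.10 in control, and Fbxw11, a ubiquitin ligase part, at 0.21 ± 0.06 and 0.30 ± 0.06. Btrc, its paralog, was called lower at -0.31 ± 0.09 and -0.34 ± 0.09. In control alone Csnk1d, a kinase gene, was called lower (-0.21 ± 0.06, against -0.05 ± 0.06 in FMRKO). On high-fat diet Gsk3b was called higher in both genotypes, at 0.37 ± 0.10 in FMRKO and 0.36 ± 0.10 in control. Csnk1d, Csnk1e and Btrc were called lower there in control, at -0.22 ± 0.06, -0.30 ± 0.10 and -0.30 ± 0.09, and 0 of the 7 in FMRKO. None of the 19 was called between FMRKO and control in any condition by edgeR, with 0, 2 and 1 of them at an unadjusted p under 0.05 with corticosterone, on high-fat diet and on chow.

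**Figure D5:**
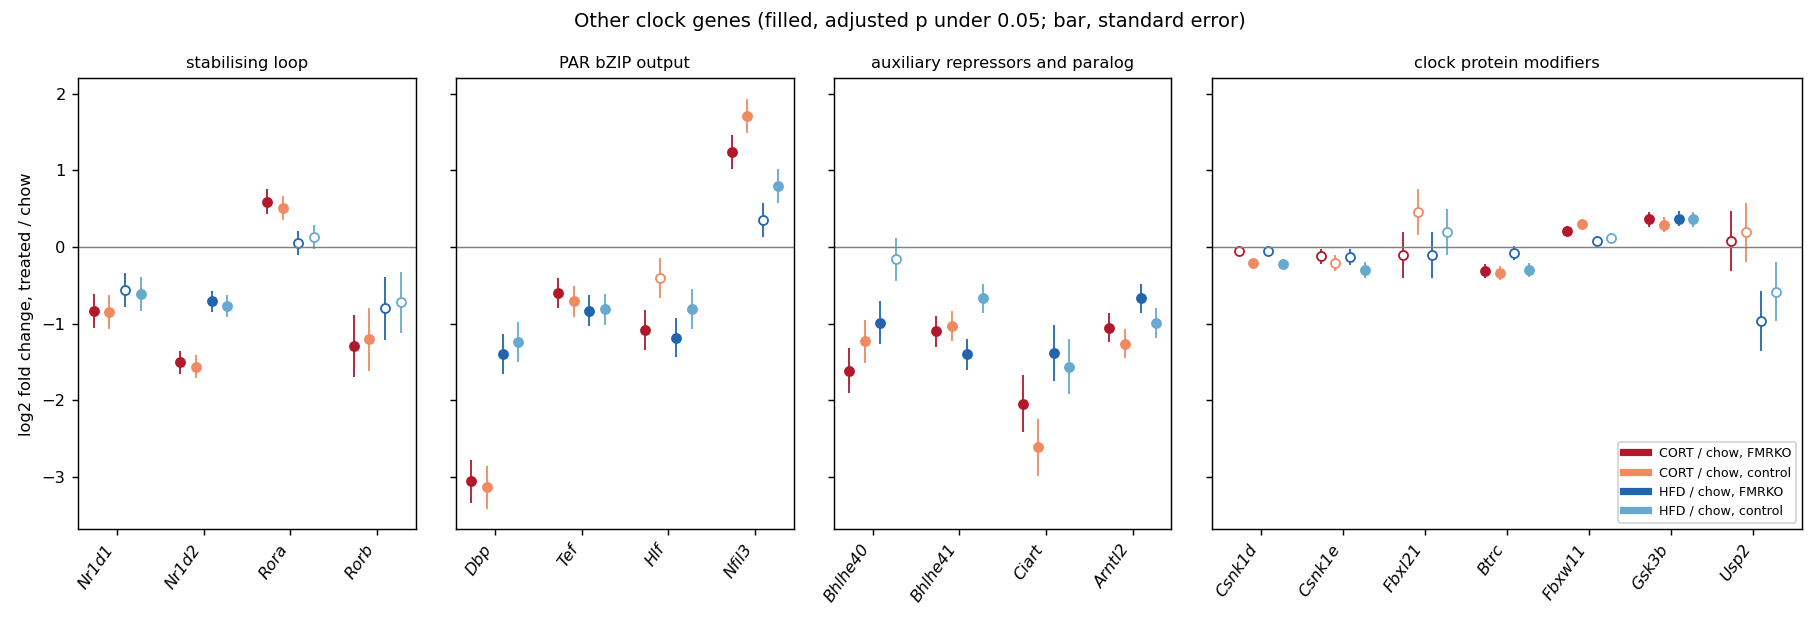
Log2 fold change (axis in log2 units) of the other clock genes in 4 lists for the 4 comparisons with chow; points are edgeR estimates, filled where the adjusted p was under 0.05, and bars are standard errors. Dbp is farthest below 0, at -3.05 and -3.13 with corticosterone, and Nfil3 is farthest above 0, at 1.24 and 1.71.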

How the data were processed

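RNA of mouse inguinal white adipose tissue was sequenced after ribosomal RNA depletion in 24 libraries, per the labels' protocols. The authors deposited read counts per gene, on the build GRCm38 with the aligner STAR (2.5.1a) and the counter featureCounts (1.4.6p-5, Subread), per the submitters' processing notes. No source used here gives the annotation release, the strand setting or the handling of multi-mapped reads. The deposited files also hold CPM and RPKM columns computed by the authors, which were reproduced from the counts to within 3.5e-10 and 1.3e-10. Levels between genes used RPKM computed here from the TMM-scaled CPM and the deposited exon lengths, not the deposited RPKM. Symbols came from GENCODE M21 (97.3% of 41388 genes matched) and promoter windows from RefSeq on GRCm38.p6.

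The counts were tested with edgeR 4.0.16 in R 4.3.3: filterByExpr (minimum count 10, leaving 19717 genes), TMM scaling, 1 fit of the 6 groups over all 24 libraries with 18 residual degrees of freedom, the quasi-likelihood test and Benjamini-Hochberg adjustment over all tested genes for each of 12 comparisons. A gene was called at an adjusted p under 0.05. The biological coefficient of variation was 34%, and it, more than counting error, limited the precision. Values per library are TMM-scaled CPM. Log2 CPM used a prior count of 1. The procedure was tested on simulated data with 200 changed genes.

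The members, the lists of other genes and the libraries left out were chosen with earlier results of these data known. The 8 members are named in every comparison of 2 groups, other clock genes in the comparisons with chow, by list (up to 4 called genes of a list, largest change first), and the 3 genes most like each member by Pearson's r. Some genes of these lists are left out of the counts and are not reported here. Alternatives were RLE and upper quartile scaling, no filter, DESeq2 1.42.0, a replicate block, only the groups compared, and leaving out single libraries or those with lymph node or muscle markers. Deviations of same-numbered FMRKO and control libraries on high-fat diet correlated at 0.20, 0.52, 0.52 and 0.70, so these numbers were taken as pairs; libraries 1 and 4 of both groups are also those with lymph node markers. In no other comparison were all such correlations over 0.1.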

Additional observations from a re-analysis of the deposited data

Results flagged for a closer look

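In each of 48 sets of 4 libraries (a member in a group), the highest and lowest library was compared with the rest of its group by Dixon's ratio at its 95% critical value. By chance about 5% of sets pass. Per1 was 370 CPM in chow control library 4, against 165 to 189 CPM in the other libraries of the group. Per2 was 53.4 CPM in high-fat diet control library 2, against 39.7 to 41.7 CPM in the others. Cry2 was 68.9 CPM in high-fat diet control library 4, one of those with lymph node markers, against 93.8 to 97.3 CPM in the others.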

How the results depend on the processing

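Under all 33 alternatives Per3 stayed called lower in the 4 comparisons with chow, Arntl and Clock stayed called higher with corticosterone against chow in both genotypes, and Arntl with corticosterone against high-fat diet in control. The number of members called was 5 in place of 3 for corticosterone against chow in control with upper quartile scaling, and 3 to 5 with single libraries left out (5 without chow control 1 or corticosterone control 1). For corticosterone against high-fat diet in FMRKO it was 1, with 2 under DESeq2, 2 with only the groups compared, 3 with the replicate block, 2 without the muscle libraries, 0 without the lymph node libraries, 0 without both, and 1 to 2 with single libraries left out; in control it was 1 in place of 3 without both. For high-fat diet against chow in control it was 3, with 2 without the lymph node libraries, 1 without both and 2 to 4 with single libraries left out; in FMRKO it was 2, with 3 without the lymph node libraries, 1 without the muscle libraries, 1 without both and 1 to 2 with single libraries left out (1 without high-fat diet FMRKO 3). For corticosterone against chow in FMRKO it was 3 in place of 4 without both. Leaving out both kinds of library was chosen after seeing the data and leaves 1 library each in chow FMRKO and high-fat diet control, assumed to vary like the other groups. Among the single values of members against chow given above, signs turned only for uncalled ones near 0: for high-fat diet against chow in control Cry1 ran from -0.17 to 0.19 with single libraries left out and Cry2 was 0.03 without the lymph node libraries; in FMRKO Npas2 was 0.12 and Cry2 0.03 without the lymph node libraries, Per1 was 0.07 without the muscle libraries, 0.20 without both and -0.23 to 0.13 with single libraries left out, Cry1 was -0.24 to 0.00 and Cry2 -0.12 to 0.08 with single libraries left out, and Cry2 was 0.01 with the replicate block; for corticosterone against chow in control Cry2 was -0.01 to 0.20. The Arntl and Npas2 correlation was 0.47 without the 2 farthest libraries (permutation p = 0.068) and 0.67 without both kinds of library (permutation p = 0.047). The cause of these changes was not tested. The replicate block also took the Per1 call of high-fat diet against chow in control (-0.74, adjusted p = 0.105) and changed no other call of a member apart from those above. A fit of the high-fat diet libraries alone with this block called 39 of all genes between FMRKO and control, and 0 members. The fit of all 24 libraries without the block called 2 genes there. DESeq2 called 89 genes between FMRKO and control on chow in place of 2, 12 on high-fat diet in place of 2, 6 with corticosterone in place of 1, and 34 on average in place of 7. With only the groups compared, high-fat diet against chow gave 3458 genes in place of 5758 in control and 3202 in place of 4813 in FMRKO; without the lymph node libraries, corticosterone against high-fat diet in control gave 3200 in place of 4904. Upper quartile scaling moved the median of all genes to -0.08 in control and -0.16 in FMRKO for high-fat diet against chow, with 38.8% and 45.8% of calls higher in place of 52.3% and 62.4%, and to -0.20 in both genotypes for corticosterone against chow.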
